A study of Mus musculus with 10 samples.

Results

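Chemokine receptors of myeloid cells were followed here through 6 genes, Ccr1, Ccr2, Ccr7, Cx3cr1, Cxcr4 and Ccrl2, out of 13809 genes measured by RNA sequencing in 10 libraries. The members were chosen by name, and each was compared over 4 groups of mouse bone marrow macrophages. The donors were C57BL/6 mice, 12 weeks old, and all cells were taken from their bone marrow. Resident macrophages were the ferromagnetic cells, labelled CD163+, that an unstained magnetic column held back. Bone marrow derived macrophages (BMDM, labelled CD163-) were grown from the cells that passed through, in medium with 20% L929 cell supernatant, a source of the growth factor M-CSF. The growth protocol gives 6 days of culture and the sample titles give 7. Stimulation was with lipopolysaccharide (LPS), the bacterial cell wall component sensed by TLR4, at 1 µg/ml for 4 h, and controls received none. There were 3 untreated resident, 3 LPS-treated resident, 2 untreated BMDM and 2 LPS-treated BMDM libraries. The stated purpose was to compare basal and LPS-induced expression between both kinds of macrophage. Whether libraries of a group came from separate mice or cultures is not stated in the labels. The spread behind each p-value is that of these libraries and may be technical.

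Chemokines are small secreted proteins that guide cells, and most of their receptors signal through inhibitory G proteins. Ccr2 brings monocytes out of the marrow and toward its ligand Ccl2, whereas Cxcr4 holds cells in the marrow through Cxcl12. Cx3cr1 binds the membrane-tethered chemokine Cx3cl1 and marks many monocytes and tissue macrophages, Ccr1 binds Ccl3 and related inflammatory chemokines, and Ccr7 directs activated dendritic cells to lymph nodes. Ccrl2 is an atypical receptor that binds chemerin, the product of Rarres2, without classical signalling.

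Values are read counts that were divided by 1 factor per library. Recovered totals ran from 27.1 M to 37.7 M reads per library, and the counts behind the 6 genes ran from 71 to 22424 reads. Replicate 1 of each resident group stood apart by carrying Y-linked transcripts, and the other 8 libraries carried none above the floor value of 1, so LPS responses in resident cells are also given without those libraries. Resident libraries also carried markers of other marrow cells. Their 15 macrophage markers summed to between 264059 and 444178, while 16 neutrophil markers summed to between 240724 and 439898 (2624 to 7931 in BMDM, where Ly6g was at the floor). The 15 monocyte markers summed to 54297 to 70875 in untreated resident, 70682 to 76882 in LPS-treated resident and 77418 to 79301 in BMDM libraries, with Ly6c1 at the floor in BMDM. Most of the BMDM monocyte sum was Csf1r, also a macrophage marker, at 42060 to 61248, and gene by gene 12 of the 15 were higher in untreated resident cells and 2 lower. All 16 neutrophil and all 12 erythroid markers were also higher in untreated resident cells than in untreated BMDM. The same held for 12 of 13 B lineage, 10 of 11 T and NK cell, 7 of 8 megakaryocyte, 8 of 9 stem and progenitor and 8 of 9 stromal markers. Macrophage markers were split, with 7 of 15 higher and 6 lower. In this comparison 39.2% of all genes were higher and 32.6% lower in resident cells. Cd163, the labelled marker, ran from 4131 to 10740 in resident and from 14.4 to 53.9 in BMDM libraries. In such bulk samples, fewer cells of a type and less RNA per cell cannot be told apart. The part of these other cell types in the results below, the differences between origins included, was not tested.

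Of the 6 genes, 4 lie on chromosome 9 of GRCm38 in the GENCODE M21 annotation. Ccrl2 spans chr9:111054486-111057519, Cx3cr1 spans chr9:119901616-120069879 and Ccr1 spans chr9:123962124-123968692, all on the minus strand. Ccr2 spans chr9:124101950-124113557 on the plus strand, and its start lies 133.258 kb from that of Ccr1. Cxcr4 spans chr1:128588199-128592293 and Ccr7 spans chr11:99144196-99155077, both on the minus strand. Ccr2 shares 1.91% and Cx3cr1 1.055% of their 50-base stretches with other genes, so reads there could be split.

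The 250 bases before the RefSeq start (GRCm38.p6) are shown for the 3 genes whose LPS response differed between resident macrophages and BMDM. For Ccrl2 the outermost of 3 RefSeq starts was taken. The Cx3cr1 window lies inside the GENCODE span given above, whose start is at 120069879. The bases right after the Cxcr4 window were not found in its GENCODE transcripts, and its GENCODE start is at 128592293. Capitals mark matches on either strand to a loose NF-kB motif (GGG, any 5 bases, CC) or to TATAAA. Ccrl2 lies at chr9:111057519-111057768, Cx3cr1 at chr9:120068297-120068546 and Cxcr4 at chr1:128592300-128592549, all read 5′ to 3′ on the minus strand.
Ccrl2: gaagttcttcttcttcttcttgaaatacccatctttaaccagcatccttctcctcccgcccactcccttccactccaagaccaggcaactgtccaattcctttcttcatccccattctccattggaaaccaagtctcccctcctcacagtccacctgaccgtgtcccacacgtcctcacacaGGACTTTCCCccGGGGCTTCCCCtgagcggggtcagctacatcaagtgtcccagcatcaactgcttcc
Cx3cr1: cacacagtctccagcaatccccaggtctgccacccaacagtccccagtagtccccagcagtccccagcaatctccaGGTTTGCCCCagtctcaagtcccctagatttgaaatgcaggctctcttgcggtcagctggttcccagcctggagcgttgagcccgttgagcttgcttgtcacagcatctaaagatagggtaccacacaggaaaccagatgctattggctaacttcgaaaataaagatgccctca
Cxcr4: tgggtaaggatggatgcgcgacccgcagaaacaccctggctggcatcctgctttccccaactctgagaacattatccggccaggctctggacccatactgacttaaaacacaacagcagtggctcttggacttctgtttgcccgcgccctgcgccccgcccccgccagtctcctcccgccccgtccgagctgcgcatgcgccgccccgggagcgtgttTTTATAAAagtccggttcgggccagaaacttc
The Ccrl2 window held 3 matches to the NF-kB motif, which overlap into 2 separate places. Of 32536 promoter windows of this length, 46.0% held at least 1 such match and 17.8% held 2 or more separate places. Cx3cr1 held 1 match and Cxcr4 none, which says only that these letters are not in its window. The Cxcr4 window held overlapping TATAAA matches on both strands at 1 place, and 12.3% of all windows held this motif.

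Ccrl2, the atypical receptor, was high in both LPS-treated groups whatever the origin of the cells. It measured 7595, 5702 and 5266 in untreated and 20711, 14590 and 15169 in LPS-treated resident libraries. BMDM gave 462 and 553 untreated, and 15353 and 16337 after LPS. Untreated BMDM were lowest, untreated resident cells were intermediate, and the LPS-treated groups overlapped each other and no untreated library. Ccrl2 rose by a log2 change of 1.44 ± 0.16 (SE; limma adjusted p = 0.000663) in resident macrophages and by 4.97 ± 0.20 (adjusted p = 9.45e-09) in BMDM. Without LPS it was higher in resident cells by 3.59 ± 0.18 on the log2 scale (limma adjusted p = 5.19e-08). Under LPS the difference was 0.07 ± 0.18 (limma adjusted p = 0.745). That last value passed the threshold after scaling to equal library totals (0.39, adjusted p = 0.0216) or quantile normalization (0.38, adjusted p = 0.0297), and with voom on recovered reads (0.39, adjusted p = 0.0221).

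**Figure D1:**
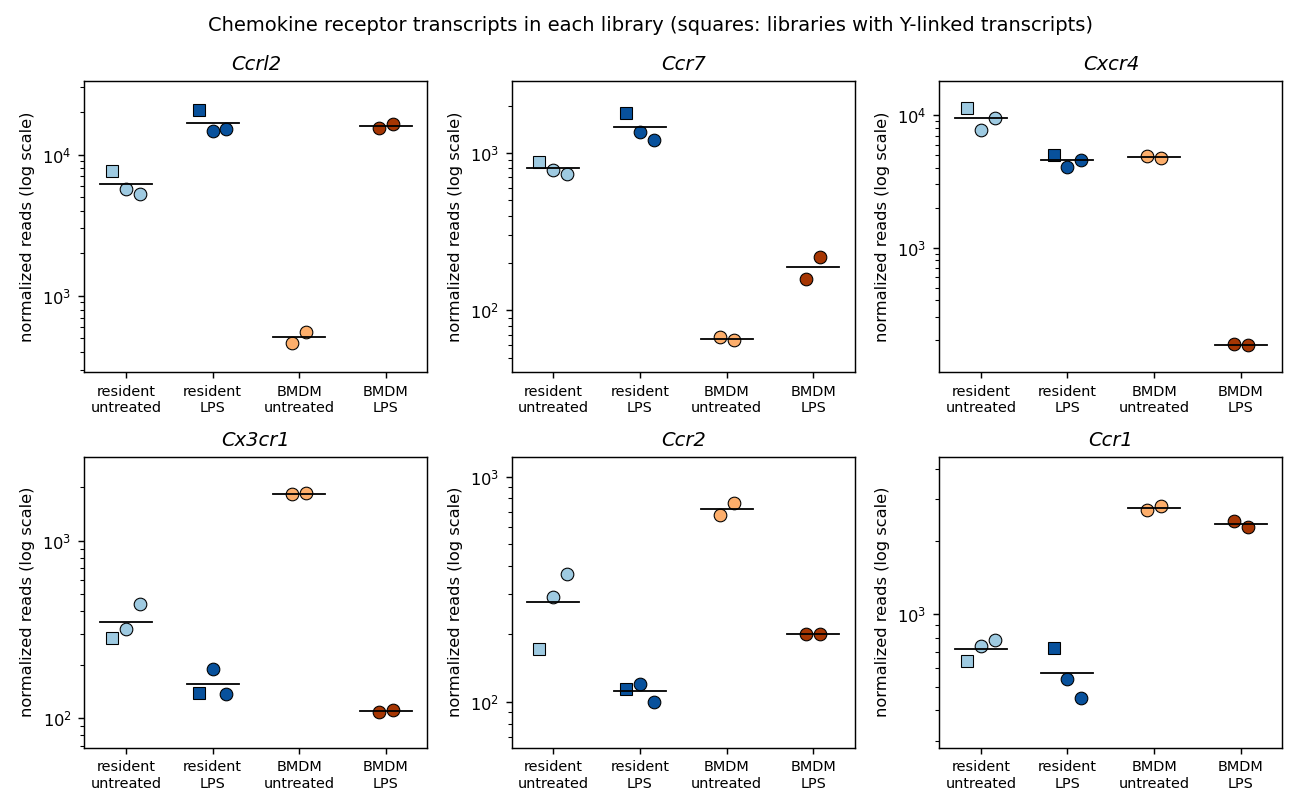
Normalized reads (log scale) of the 6 receptors in each of the 10 libraries by group, with lines at group means and squares for the resident libraries with Y-linked transcripts. Ccrl2 and Ccr7 sit higher after LPS, Cxcr4, Cx3cr1 and Ccr2 sit lower, and Ccr1 overlaps in resident cells at 449 to 782.

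Ccr7, the lymph node homing receptor, was a resident-high transcript that rose with LPS in both origins. Untreated resident libraries measured 879, 778 and 734, and LPS-treated ones 1791, 1357 and 1209. The BMDM libraries measured 67.5 and 64.9 untreated and 158 and 218 with LPS. All 4 groups were separate, with resident cells above BMDM in either condition. The rise was 0.85 ± 0.16 on the log2 scale in resident cells (limma adjusted p = 0.00917) and 1.48 ± 0.20 in BMDM (adjusted p = 0.000109). In BMDM it was 0.87 with equal library totals. Resident cells exceeded BMDM by 3.57 ± 0.18 untreated (limma adjusted p = 5.86e-08) and by 2.94 ± 0.18 with LPS (adjusted p = 3.05e-07). Dendritic markers, 14 in number, summed to 18958 to 23460 in untreated and 24803 to 27010 in LPS-treated resident libraries. In BMDM they summed to 16579 to 16808 untreated and 56893 to 58138 with LPS, and Itgax alone gave 6540 to 6628 of the untreated sum. Bst2 alone had means of 10301 in untreated resident, 3406 in untreated BMDM and 16462 in LPS-treated BMDM libraries. In BMDM, LPS raised 8 and lowered 2 of the 14, with 57.8% of all genes called. Gene by gene, 10 of the 14 were higher and 2 lower in untreated resident cells than in untreated BMDM, and 4 higher and 6 lower with LPS. Their part in the Ccr7 result was not tested.

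Cxcr4, the marrow retention receptor, fell in both origins after LPS, to its lowest level in BMDM. It measured 11297, 7755 and 9586 in untreated and 5003, 4061 and 4589 in LPS-treated resident libraries. In BMDM it measured 4917 and 4776 untreated, and 186 and 184 with LPS. Untreated BMDM overlapped LPS-treated resident cells, and LPS-treated BMDM lay far below every other library. The fall was -1.06 ± 0.13 on the log2 scale in resident cells (limma adjusted p = 0.000915) and -4.70 ± 0.15 in BMDM (adjusted p = 2.33e-09). Resident cells were higher by 0.96 ± 0.14 untreated (limma adjusted p = 0.000137; 0.57 after quantile normalization) and by 4.61 ± 0.14 with LPS (adjusted p = 3.36e-09).

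Cx3cr1, the fractalkine receptor, was highest in untreated BMDM and fell in both origins after LPS. Untreated resident libraries measured 284, 318 and 442, and LPS-treated ones 139, 190 and 136. BMDM measured 1824 and 1860 untreated, and 109 and 111 with LPS. The groups did not overlap, with LPS-treated BMDM lowest. The change in Cx3cr1 was -1.15 ± 0.18 on the log2 scale in resident cells (limma adjusted p = 0.00334) and -4.05 ± 0.22 in BMDM (adjusted p = 8.75e-08). Resident cells differed from BMDM by -2.43 ± 0.20 untreated (limma adjusted p = 1.99e-06) and by 0.48 ± 0.20 with LPS (adjusted p = 0.0521). The latter lay at the threshold, and it was 0.54 (adjusted p = 0.0249) without the Y-linked libraries and 0.03 after quantile normalization. Leaving out replicate 1 or 3 of either resident group also moved it past the threshold. The highest value over the alternatives was 0.80, and the threshold was newly passed in 10 of 24.

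Ccr2, the receptor of inflammatory monocytes, fell with LPS in both origins. Resident libraries measured 171, 291 and 369 untreated and 115, 120 and 100 with LPS. BMDM measured 674 and 766 untreated, and 199 and 200 with LPS. LPS-treated resident libraries were lowest, and untreated resident libraries overlapped LPS-treated BMDM. The change was -1.24 ± 0.23 on the log2 scale in resident cells (limma adjusted p = 0.00861) and -1.84 ± 0.29 in BMDM (adjusted p = 0.000307). Fitted on the resident groups alone, the first had an adjusted p of 0.0644. Resident cells were lower than BMDM by -1.44 ± 0.26 untreated (limma adjusted p = 0.000632) and -0.84 ± 0.26 with LPS (adjusted p = 0.0151). The LPS value did not pass without replicate 1 (adjusted p = 0.0692) or replicate 2 (adjusted p = 0.0717) of LPS-treated BMDM, with equal library totals (-0.52, adjusted p = 0.159), or with voom on recovered reads (-0.52, adjusted p = 0.274).

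Ccr1, which binds Ccl3 and other inflammatory chemokines, followed the origin of the cells. It measured 639, 739 and 782 in untreated and 721, 542 and 449 in LPS-treated resident libraries. BMDM measured 2698 and 2800 untreated, and 2439 and 2293 with LPS. Every BMDM library was above every resident library. The resident groups overlapped, and the BMDM groups did not, with the LPS-treated one lower. Resident cells were lower by -1.94 ± 0.17 on the log2 scale untreated (limma adjusted p = 3.03e-06) and by -2.08 ± 0.17 with LPS (adjusted p = 2.05e-06). The LPS change was -0.36 ± 0.15 in resident cells (limma adjusted p = 0.154) and -0.22 ± 0.18 in BMDM (adjusted p = 0.344). The resident value was -0.62 (adjusted p = 0.00299) without the Y-linked libraries and -0.54 (adjusted p = 0.016) without LPS-treated resident replicate 1 alone. The BMDM value was -0.83 (adjusted p = 0.00316) with equal library totals. Of 24 alternatives, the change newly passed the threshold in 3 for resident cells and in 5 for BMDM.

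In resident macrophages, LPS thus raised 2 and lowered 3 of the 6 receptors, against 12.9% of all 13755 tested genes called (7.36% higher and 5.57% lower). In BMDM the counts were again 2 and 3, but there 57.8% of all genes were called (28.3% higher and 29.5% lower). Untreated resident cells had 3 receptors higher and 3 lower than untreated BMDM, with 71.9% of all genes called (39.2% higher and 32.6% lower). With LPS, 2 were higher and 2 lower, with 71.3% of all genes called (36.7% higher and 34.5% lower). The members' median log2 change was -0.71 in resident cells and -1.03 in BMDM, where the medians of all genes were 0.00 and -0.04. For resident against BMDM it was -0.24 untreated and 0.27 with LPS, with all-gene medians of 0.08 and 0.03. The comparisons share libraries, since each group enters 2 of them. The members were chosen with earlier results of these data known, so the shares of all genes give scale only and test nothing.

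The LPS responses of the 2 origins were compared directly as resident minus BMDM. Of the 6 receptors, 2 were called higher and 1 lower, and 41.8% of all genes were called (19% higher and 22.8% lower). Cxcr4 differed by 3.65 ± 0.20 on the log2 scale (limma adjusted p = 2.57e-07) and Cx3cr1 by 2.90 ± 0.28 (adjusted p = 1.73e-05), both having fallen less in resident cells. Cx3cr1 fell from a lower untreated level in resident cells (means of 348 against 1842), and Cxcr4 from a higher one (9546 against 4847). Ccrl2 differed by -3.52 ± 0.26 (limma adjusted p = 2.02e-06), having risen less in resident cells, from a higher untreated level. Ccr2 differed by 0.60 ± 0.37 (adjusted p = 0.226, limma), Ccr7 by -0.63 ± 0.26 (adjusted p = 0.0767) and Ccr1 by -0.14 ± 0.24 (adjusted p = 0.673). Without the Y-linked libraries Ccr7 (-0.72, limma adjusted p = 0.0221) and Ccr1 (-0.41, adjusted p = 0.0301) passed as well. For Ccr7 the same held without LPS-treated resident replicate 1 (-0.79) or LPS-treated BMDM replicate 1 (-0.86), and it was -0.15 with equal library totals. The Ccr7 difference newly passed the threshold in 6 of the alternatives that could be fitted.

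**Figure D2:**
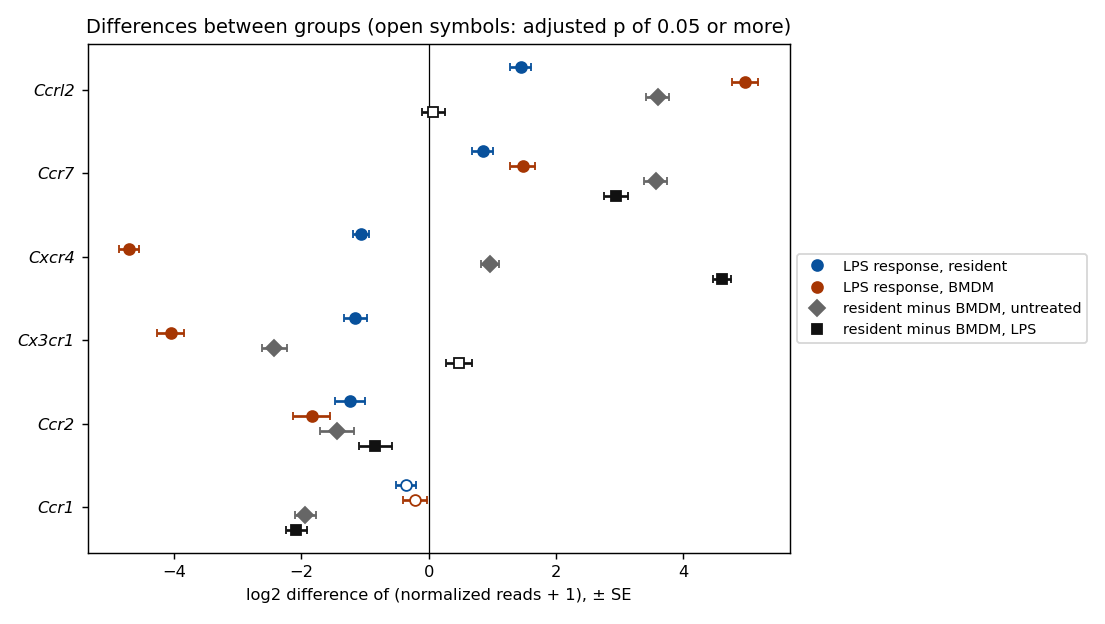
Log2 differences of (normalized reads + 1) with SE for each receptor in 4 comparisons, open symbols marking an adjusted p of 0.05 or more. The BMDM responses of Ccrl2 (4.97), Cxcr4 (-4.70) and Cx3cr1 (-4.05) lie beyond the resident ones (1.44, -1.06 and -1.15).

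Within the Y-linked pair of resident libraries, 1 per group, the LPS response was 1.45 for Ccrl2, 1.03 for Ccr7, -1.17 for Cxcr4, -1.02 for Cx3cr1, -0.58 for Ccr2 and 0.18 for Ccr1 on the log2 scale. Within the 4 other resident libraries it was 1.44, 0.76, -0.998, -1.21, -1.57 and -0.62 in the same order. The sign was shared by both sets for 5 receptors and differed for Ccr1. Against untreated BMDM, resident cells without the Y-linked libraries differed by 3.44 for Ccrl2, 3.49 for Ccr7, 0.83 for Cxcr4, -2.29 for Cx3cr1, -1.13 for Ccr2 and -1.85 for Ccr1, and all 6 were still called.

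Levels were compared between receptors as reads per kb of exon, given as shares of the summed level of 20 chemokine receptors. Cxcr4 led in untreated cells of both origins, with 47.9% to 53.9% in resident and 50.8% to 53.0% in BMDM libraries. After LPS the lead passed to Ccrl2, with 54.4% to 57.6% in resident and 73.4% to 74.5% in BMDM libraries. Cxcr4 then held 20.0% to 24.0% in resident and 1.21% to 1.28% in BMDM libraries. Ccr1 held 18.5% to 19.0% in untreated BMDM and 1.86% to 2.92% in untreated resident libraries. The 6 members together made up between 81.1% and 87.3% of the summed level in every library.

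**Figure D3:**
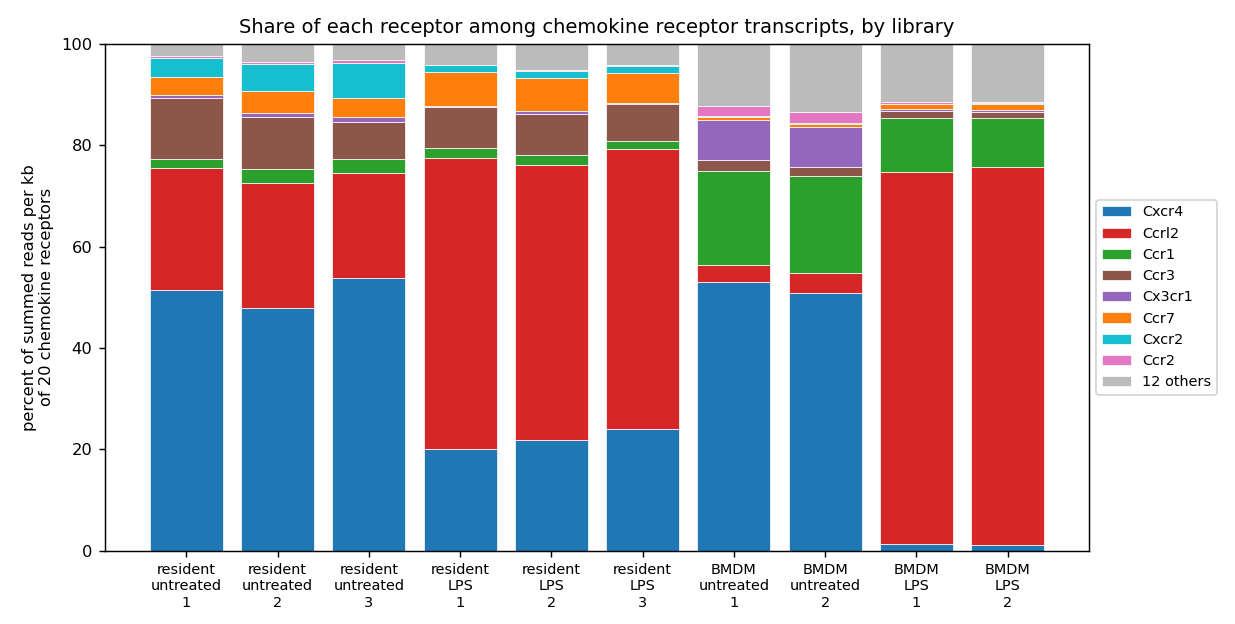
Percent of the summed reads per kb of 20 chemokine receptors in each library, stacked by receptor. Cxcr4 is the largest share in untreated libraries and Ccrl2 in LPS-treated ones, with Ccr1 larger in BMDM.

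The ratio of Ccrl2 to Cxcr4 in reads per kb ran from 0.382 to 0.512 in untreated and from 2.30 to 2.88 in LPS-treated resident libraries. In BMDM it was 0.0654 and 0.0806 untreated, and 57.4 and 61.7 with LPS. The ratio of Ccr7 to Ccr2 in reads per kb was 6.81 to 17.6 in untreated and 38.6 to 53.4 in LPS-treated resident libraries. It was 0.342 and 0.290 in untreated and 2.71 and 3.72 in LPS-treated BMDM libraries. Both ratios were higher after LPS in each origin, without overlap.

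Across the 10 libraries, Ccrl2 and Cx3cr1 ran opposite (Pearson r = -0.983), as did Ccr1 and Ccr7 (-0.949) and Ccr2 and Ccrl2 (-0.923). Ccr2 ran with Cx3cr1 (r = 0.894). These are descriptions over libraries that share groups. The genes most like Ccrl2 were Tnf (r = 0.997), Tnfaip3 (0.996) and Skil (0.996). Those most like Ccr7 were Slpi, Csf3 and Sgms2 (0.995 each). Cxcr4 was nearest to Tnfrsf21 (0.998), Sec14l1 (0.996) and Rxra (0.996), and Cx3cr1 to Ap5s1 (0.996), Pdk2 (0.992) and C2cd2l (0.991). Ccr1 was nearest to Commd3 (0.997), S100a6 (0.996) and Pebp1 (0.995), and Ccr2 to Nudt16 (0.979), Dhrs7 (0.979) and Cdadc1 (0.977).

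Of 18 other chemokine receptors listed, 14 were in the table, and in untreated cells 11 were higher and 1 lower in resident cells than in BMDM. Their median log2 difference was 3.11, or 2.93 with receptors at the floor in BMDM set to a bound of 3 reads per library, and that of all genes was 0.08. With LPS 10 were higher and 2 lower, with a median of 2.74 (2.58 at the bound). The shares of all genes called were 71.9% untreated and 71.3% with LPS. Cxcr2, a neutrophil receptor, measured 1405 to 2039 in untreated resident and 15.5 to 20.1 in untreated BMDM libraries, a difference of 6.42 ± 0.38 (limma adjusted p = 1.66e-07). Ccr3, found on eosinophils, was higher by 3.27 ± 0.25 (limma adjusted p = 1.16e-06). Neutrophil markers differed between origins as given above, and the 12 eosinophil, basophil and mast cell markers, Ccr3 among them, summed to 8942 to 11292 in resident and 928 to 1079 in BMDM libraries. Ccr3 itself had a mean of 3373 in untreated resident libraries, where the mean sum was 9807. Gene by gene, 11 of the 12 were higher and 1 lower in untreated resident cells than in untreated BMDM. The part of those cells was not tested. Ccr6, Cxcr1 and Ackr1 reached 12.4 to 85.9 in resident libraries and were at or within 1 read of the floor in BMDM. Ackr2 and Ackr4 stayed at 26.8 or less in all libraries. The call of Ackr2 with LPS (2.43 ± 0.94, limma adjusted p = 0.0388) was lost without replicate 2 (2.30) or 3 (1.95) of LPS-treated resident cells or any single BMDM library (2.43 each).

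LPS raised 2 and lowered 2 of these 14 receptors in resident cells (median 0.34). Cxcr2 fell by 1.69 ± 0.34 on the log2 scale (limma adjusted p = 0.0108). The 16 neutrophil markers, Cxcr2 among them, summed to 240724 to 425285 before and 400390 to 439898 after LPS. Gene by gene 1 of them rose, 2 fell and 13 were not called (median -0.02). Cxcr5 changed by 1.30 ± 0.29 (limma adjusted p = 0.0181) and Cxcr3 by -1.25 ± 0.30 (adjusted p = 0.0231). Both lost their call without LPS-treated resident replicate 2 (1.32 for Cxcr5 and -0.99 for Cxcr3). So did Cxcr3 without untreated resident replicate 3 (-1.06), and Cxcr5 without untreated resident replicate 2 (1.20) or LPS-treated resident replicate 1 (1.17). In BMDM 3 rose and 2 fell (median 0.14, or 0.59 over the 10 receptors off the floor). Xcr1, the receptor of cross-presenting dendritic cells, rose from 22.8 and 17.4 to 368 and 356, by 4.12 ± 0.41 on the log2 scale (limma adjusted p = 1.04e-05). Cxcr6 changed by 1.81 ± 0.28 (limma adjusted p = 0.000271), Ccr9 by 1.26 ± 0.41 (adjusted p = 0.0214) and Cxcr2 by -1.42 ± 0.41 (adjusted p = 0.0131). Ccr9 lost its call without any single BMDM library (1.16 to 1.36), and Cxcr2 without replicate 1 of untreated (-1.25) or LPS-treated BMDM (-0.66), while it was -2.19 without replicate 2 of the latter. Ccr10 measured 9.12 and 11.9 untreated and was within 1 read of the floor with LPS. Between origins the LPS response was higher in resident cells for 1 and lower for 4 of the 14, with a median of 0.28 (-0.24 over the 10 off the floor). Of all genes, 12.9% were called for LPS in resident cells, 57.8% in BMDM and 41.8% for the difference.

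**Figure D4:**
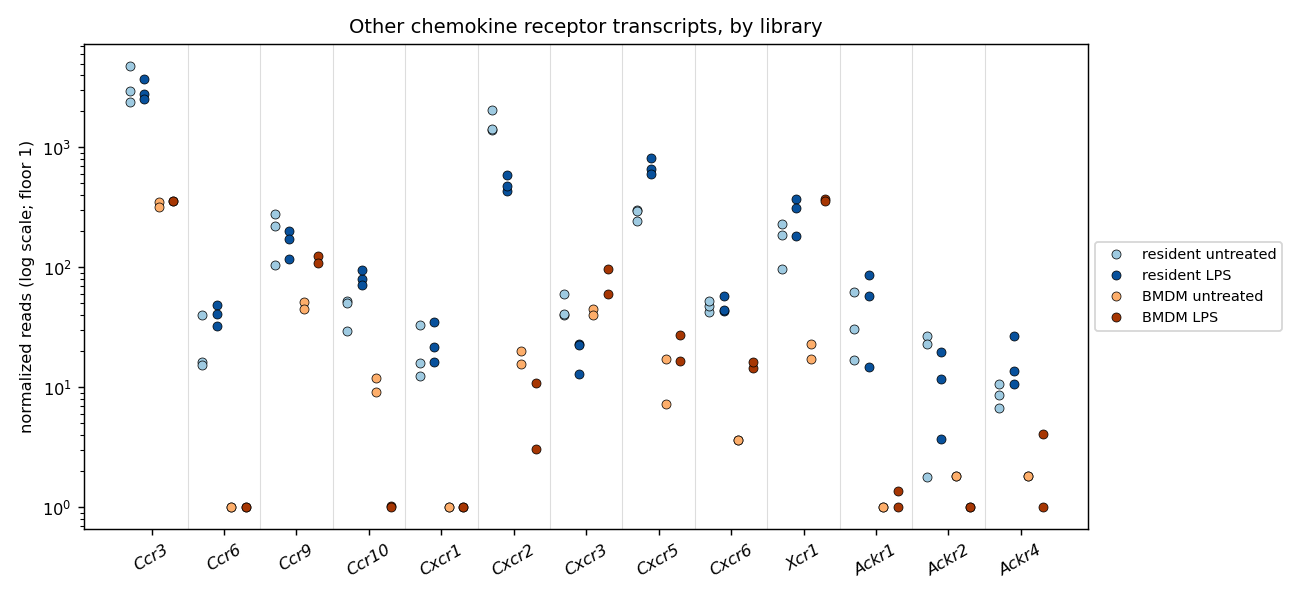
Normalized reads (log scale, floor 1) of 13 other chemokine receptors in each library by group. Most points of resident libraries lie above those of BMDM, as for Cxcr2 at 435 to 2039 against 3.08 to 20.1.

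Most ligands of the 6 receptors rose with LPS in each origin. In BMDM 10 of 13 measured ligands rose and 0 fell by limma, with a median of 4.36 (5.18 without Rarres2, at the floor in BMDM). In resident cells 7 rose and 1 fell, with a median of 0.91. Ccl5 went from 125 and 162 to 84775 and 79189 in BMDM, a log2 change of 9.16 ± 0.33 (limma adjusted p = 5e-09). Ccl4 changed there by 8.31 ± 0.27 (limma adjusted p = 2.27e-09) and Ccl3 by 7.50 ± 0.27 (adjusted p = 4.65e-09). In resident cells Ccl3 rose by 2.76 ± 0.22 (limma adjusted p = 0.000117), Cx3cl1 by 1.49 ± 0.19 (adjusted p = 0.00118) and Ccl4 by 1.48 ± 0.22 (adjusted p = 0.00279). Mif changed by -0.24 ± 0.07 (limma adjusted p = 0.0488) and lost its call without any single library but untreated resident replicate 3 (-0.27 to -0.20). The shares of all genes called were 12.9% for LPS in resident cells, 57.8% in BMDM and 41.8% for the difference between origins. Between origins, 0 of the 13 responses were higher and 9 lower in resident cells by limma, with a median of -4.03 (-4.38 without Rarres2). Ccl5 differed most, by -8.31 ± 0.43 (limma adjusted p = 1.9e-07), then Ccl4 by -6.84 ± 0.35 (adjusted p = 1.67e-07). Ccl12, a Ccr2 ligand, differed by -6.03 ± 0.48 (limma adjusted p = 4.1e-06), and by -6.65 or -5.40 without replicate 1 or 2 of untreated BMDM.

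Untreated resident cells already held high ligand levels, with 9 of 13 higher and 2 lower than untreated BMDM (median 3.64). In that comparison 71.9% of all genes were called. Ccl5 was higher by 7.88 ± 0.30 (limma adjusted p = 7.44e-09) and Ccl4 by 6.72 ± 0.25 (adjusted p = 5.07e-09). With LPS 3 ligands were higher and 6 lower (median -0.49), with 71.3% of all genes called. Ccl2, the main Ccr2 ligand, was then lower in resident cells by -2.15 ± 0.25 (limma adjusted p = 2.43e-05). Ccl6 was lower in both conditions, by -3.33 ± 0.31 untreated (limma adjusted p = 4.73e-06) and -3.50 ± 0.31 with LPS (adjusted p = 3.61e-06). Ccl9 was lower by -1.08 ± 0.13 untreated (limma adjusted p = 4.45e-05) and -2.14 ± 0.13 with LPS (adjusted p = 3.36e-07). Ccl8 was higher with LPS by 1.96 ± 0.33 (limma adjusted p = 0.000403). Cxcl12, the Cxcr4 ligand made by marrow stroma, measured 711 to 2001 in resident and 1 to 4.57 in BMDM libraries. The 9 stromal markers, Cxcl12 among them, summed to 10799 to 14612 in resident and 979 to 2484 in BMDM libraries, and their part was not tested. Rarres2 measured 12.4 to 38.6 in resident libraries and was at the floor in all BMDM libraries.

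**Figure D5:**
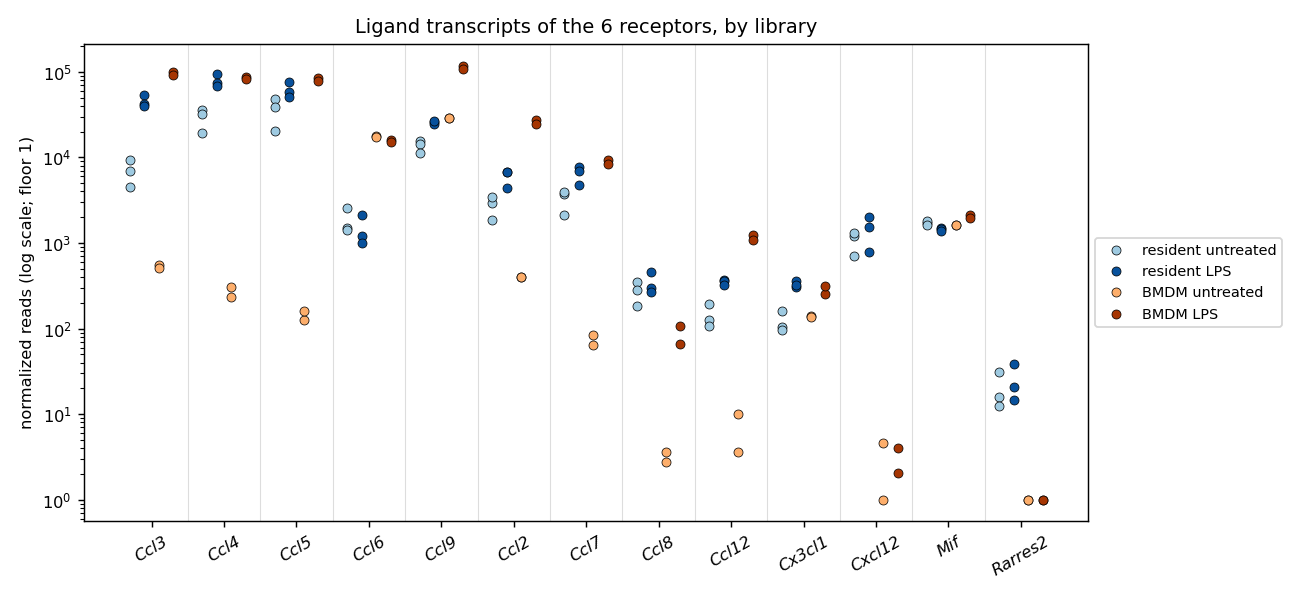
Normalized reads (log scale, floor 1) of 13 ligands of the receptors in each library by group. Ccl3, Ccl4 and Ccl5 lie near the top in all groups but untreated BMDM, and Cxcl12 and Rarres2 lie near the floor in BMDM.

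Receptors for other attractants were tested as 15 genes, of which LPS raised 3 and lowered 1 in resident cells (median -0.02) and raised 6 and lowered 5 in BMDM (median 0.38, or 0.31 with a gene at the floor set to its bound). In the same comparisons, 12.9% and 57.8% of all genes were called. Fpr1, a receptor of formylated bacterial peptides, rose by 1.82 ± 0.15 on the log2 scale in resident cells (limma adjusted p = 0.000125) and by 5.80 ± 0.18 in BMDM (adjusted p = 1.89e-09). Fpr2, its relative, rose by 0.96 ± 0.22 (limma adjusted p = 0.0194) and 7.89 ± 0.27 (adjusted p = 3.15e-09). S1pr1, the sphingosine phosphate receptor of tissue exit, changed in BMDM by -4.37 ± 0.47 (limma adjusted p = 2.14e-05), and C5ar2 by -2.40 ± 0.34 (adjusted p = 0.000169). Gpr183, the oxysterol receptor, changed by 0.85 ± 0.18 in resident cells (limma adjusted p = 0.0148) and by -3.82 ± 0.22 in BMDM (adjusted p = 1.69e-07). S1pr2 changed in resident cells by -0.48 ± 0.11 (limma adjusted p = 0.0236) and P2ry12 in BMDM by 1.66 ± 0.52 (adjusted p = 0.0184).

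Of these calls in resident cells, that of Fpr2 was lost without untreated replicate 2 (0.92) or LPS-treated replicate 1 (0.84) or 2 (1.01). Those of Gpr183 and S1pr2 were lost without LPS-treated replicate 2 (0.79 and -0.37), and that of S1pr2 also without replicate 3 (-0.48). P2ry12 lost its call without any single BMDM library (1.54 to 1.79). Between origins the response was higher in resident cells for 4 of the 15 and lower for 6, with a median of -0.67. Of all genes, 41.8% were called for this difference. Gpr183 differed by 4.66 ± 0.29 (limma adjusted p = 6.09e-07), S1pr1 by 4.50 ± 0.61 (adjusted p = 0.000205) and C5ar2 by 1.71 ± 0.44 (adjusted p = 0.011). Fpr2 differed by -6.93 ± 0.35 (limma adjusted p = 1.48e-07), Fpr1 by -3.97 ± 0.24 (adjusted p = 4.81e-07) and S1pr4 by -1.31 ± 0.36 (adjusted p = 0.0137). C5ar2 lost its call without LPS-treated BMDM replicate 1 (1.39), and S1pr4 without replicate 1 of either BMDM group (-0.92 and -1.29).

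Resident cells exceeded BMDM for 8 of these 15 receptors and were lower for 6 untreated (median 1.06), and for 8 and 4 with LPS (median 1.04). The shares of all genes called were 71.9% untreated and 71.3% with LPS. Untreated, Fpr2 was higher by 7.44 ± 0.25 (limma adjusted p = 2.71e-09) and Fpr1 by 6.51 ± 0.17 (adjusted p = 6.83e-10). C3ar1, an anaphylatoxin receptor, was lower by -3.82 ± 0.16 (limma adjusted p = 1.26e-08), Gpr183 by -3.62 ± 0.20 (adjusted p = 1.2e-07) and C5ar1 by -2.85 ± 0.13 (adjusted p = 2.47e-08). With LPS, C3ar1 was lower by -3.85 ± 0.16 (limma adjusted p = 1.99e-08), C5ar1 by -1.85 ± 0.13 (adjusted p = 7.35e-07) and S1pr2 by -1.83 ± 0.13 (adjusted p = 7.35e-07), while S1pr4 was higher by 2.82 ± 0.25 (adjusted p = 3.99e-06). S1pr3 had a mean of 210 in untreated resident libraries and was at the floor in untreated BMDM, and with LPS its means were 184 and 3.22. Ltb4r1, a leukotriene receptor of neutrophils, had means of 952 and 3.57 with LPS.

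Of 41 signalling and desensitization genes, LPS raised 5 and lowered 2 in resident cells, and raised 17 and lowered 11 in BMDM, with medians of -0.03 and 0.00. In the same comparisons, 12.9% and 57.8% of all genes were called. Jak2, a kinase, rose by 0.80 ± 0.08 on the log2 scale in resident cells (limma adjusted p = 0.000457) and by 4.67 ± 0.10 in BMDM (adjusted p = 2.17e-10). Arrb1, an arrestin that uncouples receptors, fell by 2.61 ± 0.21 in BMDM (limma adjusted p = 1.8e-06). Rgs2, a G protein regulator, fell by 1.06 ± 0.07 in resident cells (limma adjusted p = 5.09e-05), and its BMDM means were 9339 untreated and 4105 with LPS. Adrbk2, a receptor kinase, was higher in resident cells by 4.23 ± 0.14 untreated (limma adjusted p = 2.29e-09) and 2.26 ± 0.14 with LPS (adjusted p = 2.47e-07). Pik3r6 and Pik3r5, adaptor subunits of a lipid kinase, rose in BMDM by 3.17 ± 0.17 (limma adjusted p = 1.03e-07) and 2.12 ± 0.15 (adjusted p = 6.96e-07). Plcb2, a phospholipase, changed there by -2.19 ± 0.26 (limma adjusted p = 4.79e-05) and Grk4 by -1.87 ± 0.32 (adjusted p = 0.000538). In resident cells Gng12 changed by 0.39 ± 0.06 (limma adjusted p = 0.00308), Pik3r6 by 0.67 ± 0.14 (adjusted p = 0.0142) and Arrb2 by -0.38 ± 0.11 (adjusted p = 0.0477). The BMDM means, untreated and with LPS, were 3245 and 7745 for Gng12 and 5220 and 1436 for Arrb2. Pik3r6 lost its call without LPS-treated resident replicate 2 (0.63) or 3 (0.57), and Arrb2 without any single library but replicate 1 of untreated and 3 of LPS-treated resident cells (-0.39 to -0.26).

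In both comparisons of origin the counts of signalling genes were 15 higher and 15 lower untreated, and 13 higher and 16 lower with LPS, with medians of 0.01 and -0.04. The shares of all genes called were 71.9% untreated and 71.3% with LPS. Untreated, Jak2 was higher in resident cells by 2.37 ± 0.09 (limma adjusted p = 8.63e-09) and Rgs3 by 1.45 ± 0.13 (adjusted p = 5e-06). Gng2 was lower by -2.08 ± 0.15 (limma adjusted p = 7.66e-07), Arrb1 by -1.69 ± 0.19 (adjusted p = 1.87e-05) and Rgs2 by -1.60 ± 0.08 (adjusted p = 5.68e-08). With LPS, Plcb2 was higher by 2.37 ± 0.24 (limma adjusted p = 1.07e-05) and Rgs18 by 2.13 ± 0.44 (adjusted p = 0.00152). Rgs14 was then lower by -3.11 ± 0.21 (limma adjusted p = 6.44e-07), Plcb3 by -1.83 ± 0.07 (adjusted p = 1.16e-08) and Gng2 by -1.74 ± 0.15 (adjusted p = 3.11e-06). The response differed between origins for 8 genes higher and 14 lower in resident cells (median -0.16), with 41.8% of all genes called. Arrb1 differed by 2.20 ± 0.27 (limma adjusted p = 8.8e-05), Plcb2 by 2.12 ± 0.34 (adjusted p = 0.000659) and Arrb2 by 1.48 ± 0.17 (adjusted p = 7.54e-05). Jak2 differed by -3.87 ± 0.13 (limma adjusted p = 1.54e-08), Pik3r6 by -2.51 ± 0.22 (adjusted p = 9.51e-06) and Rgs14 by -2.02 ± 0.30 (adjusted p = 0.000405).

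Genes near the receptors were also counted. Of 56 tested genes starting within 500 kb of a member, 16.1% were called for LPS in resident cells, 58.9% for LPS in BMDM, 69.6% between untreated origins, 73.2% between LPS-treated origins and 50% for the difference of LPS responses. The shares of all genes were 12.9%, 57.8%, 71.9%, 71.3% and 41.8% in the same order. For LPS in resident cells the 13 neighbours of Ccr1, with the member Ccr2 counted among them, had the highest share, 38.5%. Of these, 4 were higher and 1 lower, which was Ccr2 itself, whereas the 56 genes leave out all members. The share was 25% for Ccr2, 16.7% for Ccr7, 12.5% for Cx3cr1, 8.33% for Ccrl2 and 0% for Cxcr4. Among all neighbours, LPS calls in resident cells included Csf3, a neutrophil growth factor near Ccr7 (1.83 ± 0.31, limma adjusted p = 0.00526), Csrnp1 (0.88 ± 0.11, adjusted p = 0.00135), Slc6a20a (1.16 ± 0.30, adjusted p = 0.0325) and Ccdc12 (-0.33 ± 0.07, adjusted p = 0.0141). Slc6a20a lost its call without untreated replicate 2 (1.13) or 3 (1.04) or LPS-treated replicate 2 (0.86) of resident cells, or any single BMDM library (1.16). In BMDM, Csrnp1 changed by 3.36 ± 0.14 (limma adjusted p = 1.32e-08), Nbeal2 by -3.98 ± 0.28 (adjusted p = 6.96e-07), Tns4 by -3.39 ± 0.44 (adjusted p = 7.62e-05) and Gorasp1 by -1.86 ± 0.17 (adjusted p = 5.27e-06), and Csf3 had means of 3.20 and 45.8.

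Between origins, Csf3 had a mean of 1625 in untreated resident libraries, and it was higher by 6.88 ± 0.35 with LPS (limma adjusted p = 7.97e-08). Ltf, a neutrophil granule gene near Ccrl2, was higher by 10.47 ± 0.60 untreated (limma adjusted p = 1.35e-07; 9.10 or 11.84 without replicate 1 or 2 of untreated BMDM) and 10.68 ± 0.60 with LPS (adjusted p = 1.52e-07). Zranb3 was lower by -4.45 ± 0.28 untreated (limma adjusted p = 2.88e-07) and -2.64 ± 0.28 with LPS (adjusted p = 1.46e-05), and Tns4 by -3.75 ± 0.40 untreated (adjusted p = 1.37e-05). Lztfl1 was lower with LPS by -3.30 ± 0.20 (limma adjusted p = 2.6e-07). Rapgefl1 was higher with LPS by 3.18 ± 0.78 (limma adjusted p = 0.00415), but by 4.43 or 1.92 without replicate 1 or 2 of LPS-treated BMDM, the latter losing its call. Slc6a20a had a mean of 46.6 in untreated resident libraries and was at the floor in untreated BMDM. The responses of Nbeal2 (3.48 ± 0.36, limma adjusted p = 2.75e-05), Zranb3 (1.81 ± 0.40, adjusted p = 0.00439) and Igfbp4 (1.80 ± 0.30, adjusted p = 0.000879) were higher in resident cells. Those of Xcr1 (-3.34 ± 0.53, limma adjusted p = 0.000564), Lztfl1 (-2.71 ± 0.28, adjusted p = 3.01e-05) and Csrnp1 (-2.48 ± 0.18, adjusted p = 2.17e-06) were lower.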

How the data were processed

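RNA sequencing libraries were aligned with HISAT 0.1.7 to the mouse build mm10, per the submitters' processing notes. For trimming, annotation and the read counter, the tool is not given in the sources used here. The signal values deposited by the authors are read counts divided by 1 factor per library, since they are whole multiples of 1 step (0.892 to 1.35) within 0.02 in 100% of cases tested. The fit used limma 3.58.1 (R 4.3.3) on log2 (value + 1). It took the 13755 genes that reach 10 in 2 or more libraries, in 1 model of 4 groups with 6 residual degrees of freedom and a variance trend. The 2-sided p-values were given a Benjamini-Hochberg adjustment over all genes per comparison, and calls are under 0.05. "Rose", "fell", "higher" and "lower" of tested genes refer to calls. A difference of log2 (value + 1) understates changes of low genes. The script was tested on simulated data.

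Named genes are the 6 members, the other chemokine receptors, up to 3 called risers and 3 called fallers per list and comparison (mean of at least 20 in the higher group), and the 3 genes most correlated with each member. Genes within 500 kb of a member followed the same rule. The members and lists were chosen with earlier results of these data known. Sequences come from RefSeq (GRCm38.p6), matched by symbol for 5 of 6 members. Figures were drawn with matplotlib 3.10.9. Alternatives covered pseudocount, filter, scaling, variance model, the Y-linked libraries and each library left out. Of the other chemokine receptors, 1 is counted in the list but not reported here.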

Additional observations from a re-analysis of the deposited data

Results flagged for a closer look

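The LPS response differed between resident macrophages and BMDM for 3 of the 6 receptors, by limma's test of the difference itself. The difference, resident minus BMDM on the log2 scale, was 3.65 for Cxcr4, 2.90 for Cx3cr1 and -3.52 for Ccrl2. It ran from 3.50 to 4.14 for Cxcr4, from 2.72 to 3.40 for Cx3cr1 and from -3.68 to -3.04 for Ccrl2 over the alternatives that could be fitted.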

How the results depend on the processing

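Of the recomputed member values, 681 kept their direction and their side of the threshold, 28 newly passed it and 5 no longer passed. The number of genes called for LPS in resident cells, 1779, became 529 with only the groups compared, 3449 with a term for the Y-linked libraries and 2840 without them, and it ran from 970 to 2287 with 1 library left out. The lowest value came without LPS-treated resident replicate 2. Members whose LPS response differed between origins numbered 5 without the Y-linked libraries, against 3.

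With equal library totals the median log2 value of all genes was -0.64 for LPS in BMDM (-0.04 before) and 0.47 for the difference of responses (0.02 before), so changes there are relative to it. Between higher and lower calls, LPS in BMDM went from 3896 and 4057 to 2229 and 7812 with that scaling. LPS in resident cells went from 1013 and 766 to 630 and 1729.

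Directions turned for 15 values of other named genes. With quantile normalization these were Ackr4 between untreated origins (-0.33), S1pr2 for LPS in BMDM (-0.18), C3ar1 (0.86) and Ccl9 (0.024) for the difference of responses, and Ccl4 (0.57) and Grk4 (-1.11) between LPS-treated origins. With equal library totals they were S1pr2 (-0.23) and Mif (-0.26) for LPS in BMDM and C3ar1 (0.46) for the difference. Voom on recovered reads gave -0.23, -0.26 and 0.46 for the same 3. A pseudocount of 10 turned Slc6a20a (0.036) for the difference. Without untreated BMDM replicate 2, Ltf turned for LPS in BMDM (from -1.52 to 1.21 over single libraries left out) and for the difference (from -1.16 to 1.58). The cause was not tested.

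No paired analysis was run, because the labels number the libraries in 1 run and state no pairs. The replicate numbers used here only name libraries within a group, in label order. The count tests planned as alternatives were not run, and voom on recovered reads was.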
